A study of Mus musculus with 14 samples.

Results

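The Toll-like receptors are the germline-encoded sensors by which macrophages recognise microbial and damaged-cell molecules. The 10 receptor genes described here (Tlr1 to Tlr9 and Tlr13) were taken from the deposited counts by matching gene identifiers to mouse symbols, and all 10 were found among the 47937 genes of that table. Bone marrow-derived macrophages are grown in culture from precursors of the marrow, and all libraries are labelled wild type (WT). They received the supernatant of mast cell intracellular traps (n = 3 libraries) or of mast cells (n = 5), each for 3.5 h, or were left untreated (n = 6). Poly(A) RNA was sequenced, each library carries 1 of 3 batch labels, and every group has a library in every batch. The labels name no strain, sex or age. They do not tie replicates to cultures or mice, and the p-values below therefore reflect only library-to-library spread, which may be technical.

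Each receptor has an ectodomain that binds ligand and a cytoplasmic domain that recruits adaptors. Tlr2 with Tlr1 or Tlr6, Tlr4 and Tlr5 act mainly at the cell surface on lipopeptides, lipopolysaccharide and flagellin, while Tlr3, Tlr7, Tlr8, Tlr9 and Tlr13 read nucleic acids in endosomes. MYD88 carries the signal of nearly all of them, TRIF (Ticam1) that of Tlr3 and of internalised Tlr4, and both routes lead to NF-kB and interferon regulatory factors.

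Total counts ran from 12414738 to 16491536 per library with trap supernatant, from 11729073 to 16123421 with mast cell supernatant and from 13455686 to 22720419 untreated. Batch 3 stood apart in 1 defining macrophage transcript. Lyz2, the lysozyme gene, had 1 to 2 counts in each of the 5 libraries of batch 3, whatever the treatment, against 68853 to 224532 counts in the other 9 libraries. The labels give 1 genotype for all batches, which this value goes against. Its cause was not tested. Several results that rest on batch 3, though not all, are therefore also given without it. The macrophage markers Csf1r, Adgre1, Cd68, Itgam, Mertk and Fcgr1 were present in all libraries, and these 6 summed to 6028 to 7578 CPM with trap supernatant, 5682 to 7656 with mast cell supernatant and 5913 to 8529 untreated. CPM is counts per 1e6 counts of a library after TMM scaling. Of these 6 markers Mertk, an efferocytosis receptor gene, fell with both supernatants (log2 -0.83 ± 0.17 with trap supernatant, edgeR adjusted p = 0.0328, and -0.90 ± 0.15 with mast cell supernatant, adjusted p = 0.00422). T cell markers did not exceed 0.255 CPM in any library. Transcripts of mast cells, however, were in all treated libraries: 10 markers (Cpa3, Cma1, Mcpt4, Tpsb2, Kit, Fcer1a, Ms4a2, Gata2, Hdc, Slc18a2) summed to 82.3 to 1927 CPM with trap supernatant and 80.8 to 1345 with mast cell supernatant, against 5.8 to 9.05 untreated, where 4 to 7 of the 10 were at 0. Neutrophil markers summed to 72.8 to 206, 68.4 to 213 and 79.9 to 226 CPM in these groups, with batch 3 highest in each group.

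In untreated macrophages Tlr2 and Tlr13 held most of the receptor RNA. Levels of different genes are compared as CPM per kilobase of exon. On this scale Tlr2 averaged 129 ± 24.1 (SD, n = 6), and Tlr13, the mouse sensor of bacterial 23S ribosomal RNA, averaged 73 ± 7.57. They were followed by Tlr1 (21.7 ± 3.93), the partner of Tlr2, and by Tlr7 (19.2 ± 7.13) and Tlr8 (14.5 ± 6.32). Tlr4 was at 5.97 ± 1.81, close to Tlr9 (5.59 ± 1.26) and Tlr6 (5.42 ± 1.51), and Tlr3 was at 3 ± 0.45. Tlr5, the flagellin receptor gene, was near the limit of detection at 0.04 ± 0.03. The ranges over untreated libraries did not overlap between Tlr2 (102 to 165) and Tlr13 (59.9 to 78.9), between Tlr13 and Tlr1 (16.8 to 28), or between Tlr3 (2.5 to 3.57) and Tlr5 (0.01 to 0.09). Other neighbours overlapped in range, partly because batch 2 was low for several of them. Within libraries, Tlr7 was above Tlr8, Tlr8 above Tlr4 and Tlr6 above Tlr3 in 6 of 6, while Tlr1 was above Tlr7 in 4 of 6, Tlr4 above Tlr9 in 3 of 6 and Tlr9 above Tlr6 in 3 of 6, so that these last pairs are not told apart.

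**Figure D1:**
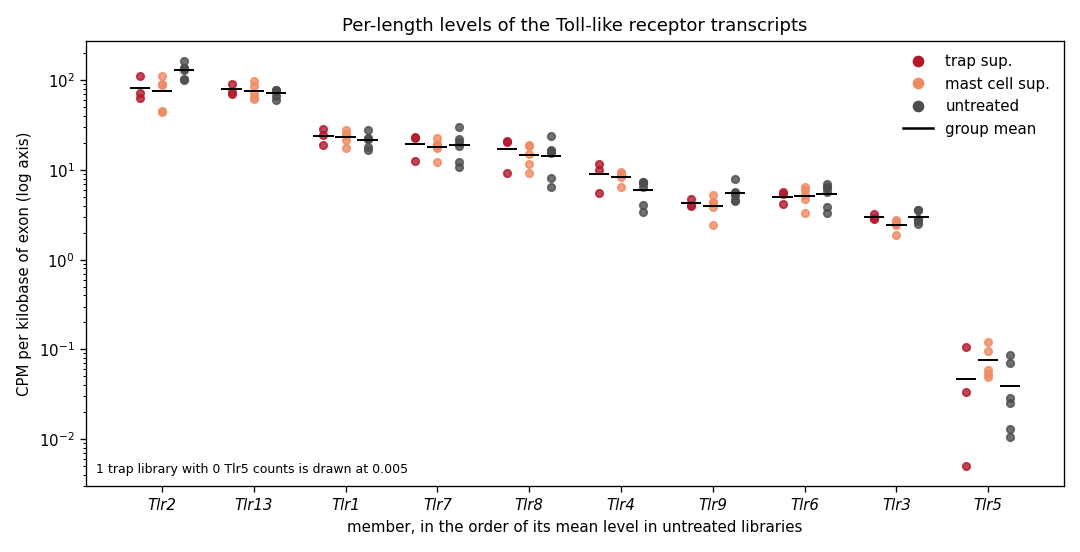
Per-length levels (CPM per kilobase of exon, log axis) of the 10 receptor transcripts, 1 point per library and a line at each group mean, with trap supernatant on the left, mast cell supernatant in the middle and untreated on the right of each gene. The points of Tlr2 and Tlr13 separate in untreated libraries, at means of 129 and 73, and overlap in range in both treated groups. Tlr5 lies below all other members.

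The summed per-length level of the 10 genes was 244 ± 35.1 with trap supernatant (n = 3), 229 ± 12.3 with mast cell supernatant (n = 5) and 277 ± 41.9 untreated (n = 6). Tlr2 made up 33.9% of it with trap supernatant, 33.2% with mast cell supernatant and 46.5% untreated, from the group means. In batch 1 the Tlr2 share was 40.9% with trap supernatant and 38.1% and 46.1% with mast cell supernatant, against 39.9% and 39.5% untreated. Treated shares there lay on both sides of the untreated ones. In batch 2 it was 35.1% with trap supernatant and 41% with mast cell supernatant, against 52.5% and 54.3% untreated. In batch 3 it was 25.3% with trap supernatant and at most 21.1% with mast cell supernatant, against 46.4% and 46.9% untreated. Tlr13 made up 32.5%, 33.4% and 26.3% of the sum in the trap, mast cell supernatant and untreated groups. Its treated shares were above untreated ones in batches 2 and 3 only. In batch 1 they were 26% with trap supernatant and 27.4% and 25.4% with mast cell supernatant, against 29.5% and 29.8% untreated. The ranges of Tlr2 and Tlr13 overlapped in both treated groups, at means of 82.5 and 79.2 with trap supernatant and 76.1 and 76.5 with mast cell supernatant. These means average opposite orders. Tlr2 was above Tlr13 in every treated library of batch 1 (112 against 71.1 with trap supernatant). It was below Tlr13 in every treated library of batch 3 (63.7 against 91.9 with trap supernatant). Batch 2 had 72 against 74.5 with trap supernatant and 89.2 against 72.5 with mast cell supernatant. Tlr1, Tlr7, Tlr8 and Tlr4 kept ranks 3 to 6 in each of the 3 groups.

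**Figure D2:**
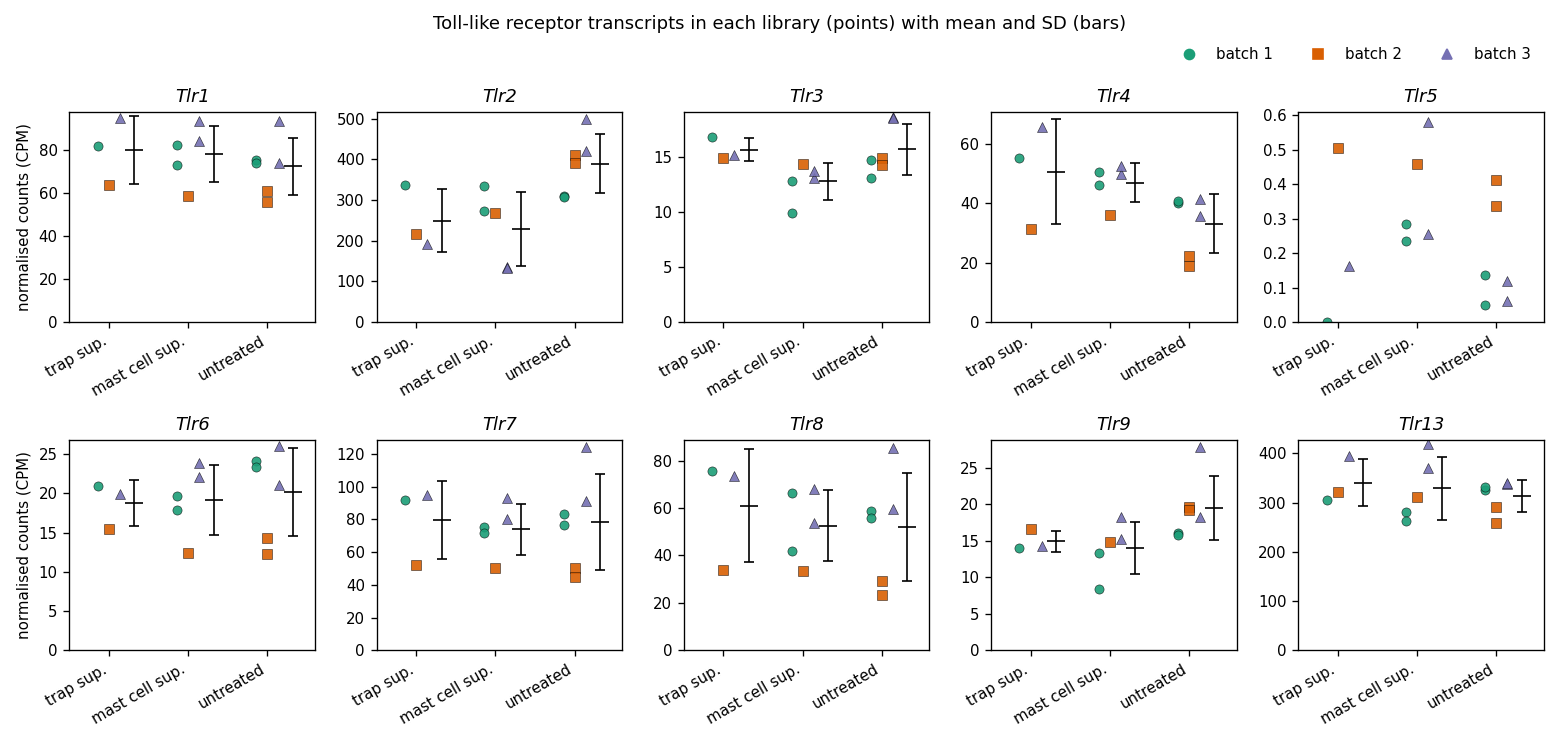
Normalised counts (CPM, linear axes from 0) of each receptor transcript in each library, in the groups trap supernatant, mast cell supernatant and untreated from left to right, with batches 1, 2 and 3 as circles, squares and triangles and the mean ± SD beside them (not drawn for Tlr5). Tlr4 in batch 2 lies at 31.2 and 36.2 CPM in treated libraries, above 22.4 and 18.7 CPM in untreated ones, and Tlr2 in batch 3 lies far below its untreated level.

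Tlr4 was the only receptor gene whose rise passed the threshold (edgeR adjusted p under 0.05) with either supernatant. It encodes the receptor for lipopolysaccharide (ENSMUSG00000039005, GRCm38 chromosome 4, 66827584 to 66930284, plus strand). With trap supernatant Tlr4 was at 55.2, 31.2 and 65.6 CPM in batches 1, 2 and 3. With mast cell supernatant it was at 50.5 and 46.1 CPM in batch 1, 36.2 in batch 2 and 49.8 and 52.5 in batch 3. Untreated libraries had 40 and 40.9 CPM in batch 1, 22.4 and 18.7 in batch 2 and 35.7 and 41.4 in batch 3. All 8 treated libraries were above both untreated libraries of their batch, while the groups overlapped across batches, since batch 2 was lowest in each group. Of all genes tested, 7.87% were above untreated in all 3 batches with trap supernatant, among them Tlr1 and Tlr4, and 4.07% with mast cell supernatant, among them Tlr4. For 0 of the 10 receptor genes did a treated group separate from untreated across all batches. Over all genes 1.43% did so upward and 1.69% downward with trap supernatant, and 0.735% and 1.09% with mast cell supernatant.

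The batch-adjusted rise of Tlr4 was 1.52-fold with trap supernatant (log2 0.60 ± 0.10, SE; 95% interval 0.39 to 0.82; edgeR quasi-likelihood test, adjusted p = 0.00489). With mast cell supernatant it was 1.36-fold (log2 0.45 ± 0.09; interval 0.26 to 0.63; adjusted p = 0.0067). Over all 13061 genes tested, 1.72% passed with trap supernatant and 4.79% with mast cell supernatant, and Tlr4 was 1 of 9 receptor genes in each. The 2 comparisons share the untreated libraries. Its differences of 0.45, 0.61 and 0.77 with trap supernatant and 0.25, 0.82 and 0.41 with mast cell supernatant in batches 1, 2 and 3 did not pass the treatment-by-batch test (adjusted p = 0.148), though they did in 2 of 14 fits that each left out a library, those without untreated replicate 3 or 6 (adjusted p from 0.0217 to 0.725 over the 14). The trap call rested on trap replicate 3, without which log2 was 0.50 (adjusted p = 0.0664). Without batch 3 it was 0.52 with trap supernatant (adjusted p = 0.0605) and 0.48 with mast cell supernatant (adjusted p = 0.0243). The treatment-by-batch test of Tlr4 passed in the libraries of batches 1 and 2 alone (adjusted p = 0.024). In the 9 libraries of replicates 1 to 3, where the replicate block is the same as batch and the change is 5 fewer libraries, log2 was 0.61 with trap supernatant (adjusted p = 0.0949) and 0.50 with mast cell supernatant (adjusted p = 0.115).

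Tlr4 and mast cell transcripts were both higher in treated libraries. Among the 9769 genes averaging 5 CPM or more, the 3 most like Tlr4 in log2 CPM over the 14 libraries, after centring on batch means, were Kit (Pearson r = 0.958), Slc18a2 (0.956) and Il1rl1 (0.954). These encode the stem cell factor receptor, the vesicular monoamine transporter and the interleukin-33 receptor. Kit averaged 0.325 CPM and Slc18a2 0.0151 CPM untreated, so they passed the 5 CPM minimum only through treated libraries, and these correlations largely restate treated against untreated. Within the 8 treated libraries, centred on batch, the correlation of the marker sum was 0.771 with Tlr4 and 0.891 with Tlr2, and lay between -0.683 and 0.2 for the other 7 receptor genes. In batch 3 the mast cell marker sum was 1927 CPM in the trap library and 277 and 221 CPM in the mast cell supernatant libraries, and Tlr4 was 1.7-fold, 1.29-fold and 1.36-fold the untreated mean of that batch. In batch 2 the sum was 726 CPM with trap supernatant and 1345 CPM with mast cell supernatant, and Tlr4 was 1.52-fold and 1.76-fold the untreated mean.

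In batch 1 the marker sums were lowest, 82.3 CPM with trap supernatant and 80.8 and 107 CPM with mast cell supernatant. Tlr4 was there 1.36-fold the untreated mean with trap supernatant and 1.25-fold and 1.14-fold with mast cell supernatant, so the library with the highest sum of this batch had the lowest treated Tlr4. Without the 3 libraries whose marker sum exceeded 500 CPM, an alternative chosen after seeing the data, log2 was 0.50 with trap supernatant, which then had 1 library whose spread is taken from the other groups (adjusted p = 0.207), and 0.34 with mast cell supernatant (adjusted p = 0.0483). The part of mast cell RNA in the Tlr4 counts was not tested. In bulk RNA, more cells of a type and more RNA per cell cannot be told apart.

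**Figure D3:**
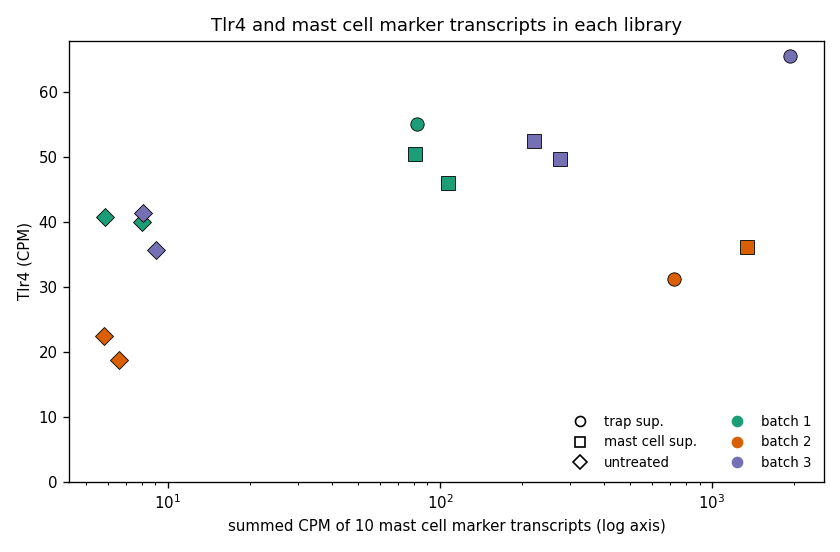
Tlr4 (CPM, linear axis) against the summed CPM of 10 mast cell marker transcripts (log axis) in each library, with circles for trap supernatant, squares for mast cell supernatant, diamonds for untreated, and colour for batch. Within batches 2 and 3 the library with the highest marker sum, 1345 and 1927 CPM, also has the highest Tlr4, and in batch 1 treated libraries lie above untreated ones at sums of 80.8 to 107 CPM.

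The transcripts of the co-receptor proteins of Tlr4 were measured beside it. Cd14, which hands lipopolysaccharide to the receptor, was at 734 ± 184 CPM with trap supernatant, 772 ± 267 with mast cell supernatant and 546 ± 108 untreated. It rose with mast cell supernatant (log2 0.39 ± 0.10; edgeR adjusted p = 0.0412), and its value with trap supernatant was 0.42 ± 0.11 (adjusted p = 0.0974). The mast cell supernatant call was lost in 11 of 14 fits that each left out a library (adjusted p from 0.00732 to 0.0955), kept only without mast cell supernatant replicate 5 or untreated replicate 3 or 6. Without batch 3, Cd14 passed with both supernatants (log2 0.57 and 0.61; adjusted p = 0.00123 and 0.000147). By batch these differences were 0.73, 0.38 and 0.04 with mast cell supernatant and 0.57, 0.55 and 0.16 with trap supernatant. Ly96, which encodes the MD-2 subunit, was at 11.4 ± 2.24, 10.3 ± 2.22 and 10.1 ± 1.02 CPM in the same order of groups, with log2 0.16 ± 0.12 for trap supernatant and -0.01 ± 0.11 for mast cell supernatant (adjusted p = 0.638 and 0.97).

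The response of Tlr2, the shared chain of the lipopeptide receptors (ENSMUSG00000027995, GRCm38 chromosome 3, 83836272 to 83841767, minus strand), differed between batches. With trap supernatant Tlr2 was at 337, 217 and 192 CPM in batches 1, 2 and 3. With mast cell supernatant it was at 274 and 335 CPM in batch 1, 269 in batch 2 and 136 and 133 in batch 3. Untreated libraries had 309 and 307 CPM in batch 1, 410 and 391 in batch 2 and 419 and 498 in batch 3. In batches 2 and 3 all treated libraries were below both untreated ones, and in batch 1 they lay on both sides.

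The log2 difference of Tlr2 was 0.13, -0.88 and -1.25 in batches 1, 2 and 3 with trap supernatant, and -0.02, -0.57 and -1.77 with mast cell supernatant. The test of whether the treatment differences were alike in all batches gave adjusted p = 8.98e-07 for Tlr2 (edgeR, 4 interaction terms), with 2 of 9 receptor genes past the threshold beside 8.01% of all genes. Trap groups had a single library per batch, as had mast cell supernatant in batch 2. Their spread in this test therefore comes from the other groups. Pooled over batches, Tlr2 did not pass: log2 was -0.70 ± 0.33 with trap supernatant (interval -1.44 to 0.03; adjusted p = 0.407) and -0.84 ± 0.28 with mast cell supernatant (-1.47 to -0.21; adjusted p = 0.133). By DESeq2, which called 6.77% of all genes with mast cell supernatant and 3.13% with trap supernatant, the mast cell supernatant value passed (adjusted p = 0.027). Without batch 3, log2 was -0.35 with trap supernatant and -0.28 with mast cell supernatant, neither past the threshold, and the treatment-by-batch test gave adjusted p = 1.44e-05.

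**Figure D4:**
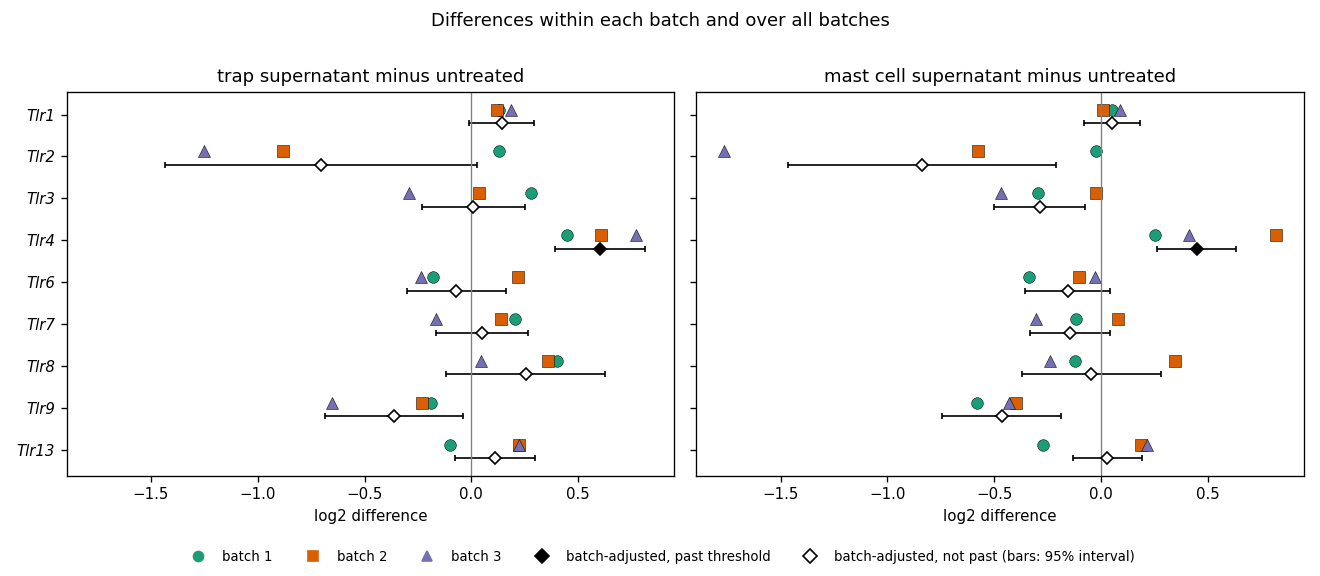
Log2 differences of the 9 tested receptor transcripts, trap supernatant minus untreated on the left and mast cell supernatant minus untreated on the right, in batches 1, 2 and 3 (coloured symbols) and adjusted for batch (diamonds with 95% intervals, filled where past the threshold). Tlr4 is positive in all 3 batches in both panels, and Tlr2 runs from 0.13 to -1.25 on the left and from -0.02 to -1.77 on the right.

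Genes known as targets of Toll-like receptor signalling also differed between batches. For Tnf, the tumour necrosis factor gene, the log2 difference by batch was 2.14, 0.09 and -0.09 with trap supernatant and 2.34, 0.66 and -0.86 with mast cell supernatant. For Il1b, the interleukin-1 beta gene, it was 2.85, 0.96 and 0.33 with trap supernatant and 3.57, 1.57 and -0.46 with mast cell supernatant. The same test gave adjusted p = 6.66e-09 for Tnf and 8.26e-07 for Il1b. The batch with the highest Tnf and Il1b values under treatment, batch 1, was the one in which Tlr2 differed least from untreated. Irf7, an interferon regulatory factor gene downstream of the endosomal receptors, had 1.08, 0.47 and -0.47 with trap supernatant and 0.53, -0.03 and -0.24 with mast cell supernatant, and its test gave adjusted p = 0.768. The genes most like Tlr2 over the 14 libraries, centred on batch, were Slc38a6 (r = 0.99), Tent5c (0.988) and Rab32 (0.974), which encode an amino acid transporter, a poly(A) polymerase and a small GTPase.

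Tlr13 (ENSMUSG00000033777, GRCm38 chromosome X, 106143204 to 106160493, plus strand) was the other receptor gene past the treatment-by-batch test with all libraries. Tlr13 was at 306, 321 and 396 CPM with trap supernatant in batches 1, 2 and 3. With mast cell supernatant it was at 281 and 264 CPM in batch 1, 312 in batch 2 and 371 and 419 in batch 3. Untreated libraries had 326 and 331 CPM in batch 1, 292 and 258 in batch 2 and 339 and 339 in batch 3. Treated libraries were thus below untreated ones in batch 1 and above them in batches 2 and 3. The log2 differences were -0.10, 0.23 and 0.22 with trap supernatant and -0.27, 0.19 and 0.22 with mast cell supernatant (interaction, adjusted p = 0.0446). This call was lost in 6 of 14 fits that each left out a library (mast cell supernatant replicates 1, 4 and 5 and untreated replicates 1, 4 and 5), with adjusted p from 0.0116 to 0.285. Without batch 3 it was 0.00485. Its pooled values, 0.11 ± 0.09 and 0.03 ± 0.08, did not pass (adjusted p = 0.655 and 0.878). Zmat3 (r = 0.962), Xpo7 (0.932) and Orc5 (0.926) were the genes most like Tlr13.

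The RefSeq promoter windows of Tlr2 and Tlr13 (GRCm38.p6, 250 bases before to 50 after the annotated start) are shown because these 2 genes differed between batches in opposite directions. RefSeq windows were matched for 8 of the 10 genes; Tlr4 and Tlr7 had none. Capitals mark matches, on either strand, to NF-kB (searched by its 10-letter consensus), AP-1 (TGACTCA), CRE (TGACGTCA), ISRE (GAAA, any 2 bases, GAAA), PU.1 (GAGGAA) or C/EBP (TTGCNNAA).
Tlr2, chr3:83841559-83841858, minus strand: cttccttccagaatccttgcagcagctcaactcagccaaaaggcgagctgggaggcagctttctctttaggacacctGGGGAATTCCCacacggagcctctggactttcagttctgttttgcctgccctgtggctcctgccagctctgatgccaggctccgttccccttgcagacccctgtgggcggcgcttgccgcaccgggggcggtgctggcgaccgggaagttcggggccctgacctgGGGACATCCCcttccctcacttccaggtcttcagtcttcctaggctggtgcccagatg
Tlr13, chrX:106143025-106143324, plus strand: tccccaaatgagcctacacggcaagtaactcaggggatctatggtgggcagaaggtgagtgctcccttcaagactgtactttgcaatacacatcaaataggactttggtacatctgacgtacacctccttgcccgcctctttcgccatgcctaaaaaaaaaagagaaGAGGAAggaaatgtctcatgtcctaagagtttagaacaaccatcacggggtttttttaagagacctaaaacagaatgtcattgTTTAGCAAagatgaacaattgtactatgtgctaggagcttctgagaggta

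The Tlr2 window held NF-kB matches at bases 78 to 88 (overlapping matches) and 243 to 252, and no match to the other motifs. NF-kB matches occur in 4.51% of all 32851 promoter windows of the same length. The Tlr13 window held a PU.1 match at bases 168 to 173 and a C/EBP match at bases 251 to 258, motifs found in 28.3% and 10.8% of windows. Among the other members, the first Tlr6 window held overlapping ISRE matches (3.44% of windows), the Tlr3 window an NF-kB match and the Tlr9 window an AP-1 match (5.2% of windows). PU.1 matches also lay in windows of Tlr1, Tlr8 and Tlr9, and C/EBP matches in those of Tlr3, Tlr6 and Tlr8. All of these are matches of letters only.

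The remaining surface receptor genes did not pass in either comparison with untreated. Tlr1, a partner of Tlr2, was at 81.8, 63.7 and 95 CPM in batches 1, 2 and 3 with trap supernatant, against a lowest, median and highest untreated value of 56.1, 74.2 and 93.8 CPM. Its log2 difference was 0.14 ± 0.07 with trap supernatant (interval -0.01 to 0.29; adjusted p = 0.42) and 0.05 ± 0.06 with mast cell supernatant (adjusted p = 0.69). Within batches it was 0.13, 0.12 and 0.19 with trap supernatant, the most even values among the receptor genes.

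Tlr6, the other partner of Tlr2, was at 18.8 ± 2.93 CPM with trap supernatant, 19.2 ± 4.46 with mast cell supernatant and 20.2 ± 5.63 untreated. Its log2 differences were -0.07 ± 0.11 and -0.16 ± 0.09 (adjusted p = 0.861 and 0.383). Tlr1 and Tlr6 are neighbours on chromosome 5 and share sequence: 15.4% of the 50-base words of the Tlr1 transcripts and 12.3% of those of Tlr6 occur in transcripts of other genes, mostly in each other. How reads in the shared part were counted is not given in the sources used here, so the split of counts between Tlr1 and Tlr6 is uncertain. For Tlr2, Tlr5, Tlr7, Tlr8, Tlr9 and Tlr13 the share was 0%, and for Tlr4 it was 0.216%.

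Tlr5 had 0, 9 and 2 counts in the trap libraries of batches 1, 2 and 3, a total of 24 counts over the mast cell supernatant libraries and 18 over the untreated ones. It was too low to be tested, and a difference was not detectable at this depth. Of the receptor genes outside the 10 described here, Tlr11 had 6, 6 and 11 counts in the trap, mast cell supernatant and untreated groups, and Tlr12 had 0, 1 and 1.

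The endosomal receptor genes did not pass in either pooled comparison. Tlr7, a sensor of single-stranded RNA, was at 92, 52.1 and 95 CPM with trap supernatant in batches 1, 2 and 3, and at 44.7, 79.7 and 124 CPM as the lowest, median and highest untreated value. Its log2 differences were 0.05 ± 0.10 with trap supernatant and -0.15 ± 0.09 with mast cell supernatant (adjusted p = 0.895 and 0.383). Tlr8, its neighbour on chromosome X and a sensor of RNA breakdown products in humans, was at 61 ± 23.7, 52.6 ± 15.1 and 52 ± 22.7 CPM in the trap, mast cell supernatant and untreated groups. Its differences were 0.25 ± 0.17 and -0.05 ± 0.15 (adjusted p = 0.591 and 0.909).

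Tlr3, the sensor of double-stranded RNA, was at 16.8, 14.9 and 15.2 CPM with trap supernatant, at 9.92 to 14.3 CPM with mast cell supernatant and at 13 to 18.6 CPM untreated. Its log2 difference from untreated was 0.01 ± 0.11 with trap supernatant (adjusted p = 0.986) and -0.29 ± 0.10 with mast cell supernatant (adjusted p = 0.117). An antisense gene, Gm45542, overlaps exons of Tlr3, and the strand setting of the counting is not given in the sources used here. Tlr9, the sensor of unmethylated CpG DNA, was at 13.9, 16.6 and 14.3 CPM with trap supernatant in batches 1, 2 and 3. With mast cell supernatant Tlr9 was at 13.3 and 8.41 CPM in batch 1, 14.8 in batch 2 and 18.2 and 15.3 in batch 3. Untreated libraries had 16.1 and 15.7 CPM in batch 1, 19.6 and 19.2 in batch 2 and 18.2 and 27.8 in batch 3.

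The trap libraries were thus below both untreated libraries in each batch, and the mast cell supernatant libraries were so in batches 1 and 2. With trap supernatant 8.13% of all genes lay below in all 3 batches, and with mast cell supernatant 4.65%, with 0 receptor genes among them. The pooled log2 difference of Tlr9 was -0.36 ± 0.15 with trap supernatant (interval -0.68 to -0.04; adjusted p = 0.324) and -0.46 ± 0.13 with mast cell supernatant (interval -0.74 to -0.19; adjusted p = 0.0552). Neither passed by edgeR with all libraries, and by DESeq2 the mast cell supernatant value did (adjusted p = 0.019). Leaving out a library moved the trap value between -0.46 and -0.21, the weakest being without trap replicate 3. The mast cell supernatant value passed without trap replicate 3 or untreated replicate 3 (adjusted p from 0.0303 to 0.115 over 14 fits) and without batch 3 (log2 -0.47; 0.0336). Untreated replicate 6, at 27.8 CPM, lay far above the other untreated libraries.

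Trap supernatant was also set against mast cell supernatant. By edgeR 0 of 9 receptor genes passed, 1 (Tlr3) had an unadjusted p under 0.05, and none passed by DESeq2 or limma-voom. Over all genes 0% passed by edgeR, whereas DESeq2 called 11 genes and limma-voom 0, and 569 had an unadjusted edgeR p under 0.05. Tlr3 had a log2 difference of 0.30 ± 0.12 (interval 0.04 to 0.55; adjusted p = 1), and its lowest trap library, 14.9 CPM, was above its highest mast cell supernatant library, 14.3 CPM. Of all genes, 0.628% lay above without overlap in this way and 0.559% below. Tlr3, Tlr7 and Tlr8 were above in all 3 batches, as were 5.93% of all genes, and 0 receptor genes were below in all 3, against 6.03% of all genes. The values were positive for all 9 receptor genes, and for 6574 of all 13061 genes. This common sign was not stable: leaving out a library took Tlr2 as low as -0.11, Tlr6 to -0.04 and Tlr9 to -0.01. Nor are these 9 separate signs, since some receptor genes varied together, such as Tlr7 with Tlr8 (r = 0.799, centred on batch). The median log2 difference was 0.13 beside 0.00 over all genes tested. The intervals ran from -0.07 to 0.25 for Tlr1, the narrowest, to -0.59 to 0.86 for Tlr2, the widest, so differences of these sizes between the supernatants are not excluded.

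Without treatment, most receptor genes differed between batches. Over the 6 untreated libraries 8 of 9 passed the test of batch, beside 36.2% of all genes, the exception being Tlr9 (edgeR adjusted p = 0.0831). In the same test without batch 3, Tlr9 passed (adjusted p = 0.019) and Tlr3 did not (adjusted p = 0.673). Leaving out an untreated library leaves 1 library in its batch, and the calls of Tlr1, Tlr3, Tlr9 and Tlr13 changed in some such fits. Tlr4 was at 40 and 40.9, 18.7 and 22.4, and 35.7 and 41.4 CPM in batches 1, 2 and 3 (adjusted p = 0.000126). Tlr8 was at 55.7 and 58.9, 23.5 and 29.3, and 59.4 and 85.5 CPM (adjusted p = 0.00152). Tlr1, Tlr6, Tlr7 and Tlr13 were likewise lowest in batch 2, whereas Tlr2 was lowest in batch 1 (adjusted p = 0.000718).

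Batch 2 also stood apart in transcripts of another cell type. The fibroblast markers Col1a1, Col1a2 and Pdgfra summed to 127 to 149 CPM over the libraries of batch 2 and to 7.39 to 27.1 CPM in all others, whatever the treatment. Their part in the batch differences was not tested. Batch 3 differed in Lyz2, as given above, and in neutrophil markers. These summed to 182 to 226 CPM over its libraries and to 68.4 to 144 CPM in all others, whatever the treatment. Their part was not tested either. Without batch 2 only Tlr2 passed between untreated batches.

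Genes of the pathway beyond the receptors were also compared. Of 55 listed genes of co-receptors, trafficking factors, proteases, adaptors, kinases, transcription factors and inhibitors, 52 were tested. With trap supernatant 2 of the 52 rose and 0 fell, beside 120 of 13061 genes higher (0.919%) and 104 lower (0.796%). With mast cell supernatant 5 of the 52 rose and 0 fell, beside 283 of 13061 genes higher (2.17%) and 342 lower (2.62%). The upward shares were above those of all genes, though on 2 and 5 genes only. The medians of the list were 0.01 and -0.01 on the log2 scale, beside -0.01 and -0.01 over all genes. All treated libraries also held mast cell transcripts, and their part in the values of pathway genes was not tested.

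Ikbke, which encodes the kinase IKK-epsilon of the interferon arm, rose with both supernatants. It was at 169 ± 22.8 CPM with trap supernatant, 169 ± 21.3 with mast cell supernatant and 133 ± 22.5 untreated, with log2 0.35 ± 0.05 (edgeR adjusted p = 0.0011) and 0.30 ± 0.04 (adjusted p = 0.000593). Its differences were 0.35, 0.43 and 0.27 by batch with trap supernatant and 0.32, 0.33 and 0.24 with mast cell supernatant. Cd36, a scavenger receptor that assists Tlr2 with Tlr6, rose with trap supernatant, to 2430 ± 525 CPM against 2081 ± 436 untreated (log2 0.23 ± 0.05; adjusted p = 0.0423). The Cd36 call was lost in 9 of 14 fits that each left out a library, among them each trap library (adjusted p from 0.0318 to 0.254), and without batch 3 (0.1001). The Ikbke calls held in all 14 and without batch 3.

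Among the adaptors, Ticam1, which encodes TRIF, rose with mast cell supernatant, at 74.6 ± 20.9 CPM against 57.1 ± 11 untreated (log2 0.29 ± 0.07; edgeR adjusted p = 0.0272). The Ticam1 call was lost in 5 of 14 fits that left out a library (mast cell supernatant replicates 1 and 2 and untreated replicates 1, 4 and 5; adjusted p from 0.0199 to 0.0786). Its differences by batch were 0.52, 0.25 and 0.08. Myd88 was at 129 ± 3 CPM with trap supernatant, 127 ± 9.2 with mast cell supernatant and 114 ± 5.43 untreated, and did not pass (log2 0.17 ± 0.05 and 0.13 ± 0.05; adjusted p = 0.162 and 0.13). Tirap and Ticam2, the bridging adaptors, had values of -0.04 ± 0.09 and -0.17 ± 0.09 with trap supernatant and -0.19 ± 0.08 and -0.12 ± 0.08 with mast cell supernatant, none past the threshold.

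Of the genes that bring receptors to the endosome and process them, 2 rose with mast cell supernatant. Hsp90b1, the chaperone gp96, was at 521 ± 45.2 CPM with mast cell supernatant against 462 ± 55.2 untreated (log2 0.18 ± 0.05; edgeR adjusted p = 0.0483). This call was lost in 13 of 14 fits that each left out a library, all but that without untreated replicate 3 (adjusted p from 0.0289 to 0.0964), and without batch 3 (0.0794). Ctsl, the protease cathepsin L, was at 4543 ± 929 CPM against 3688 ± 810 (log2 0.21 ± 0.04; adjusted p = 0.0068). Unc93b1, the carrier of the nucleic acid-sensing receptors, was at 693 ± 63.3, 711 ± 93.7 and 697 ± 82.2 CPM in the trap, mast cell supernatant and untreated groups (log2 0.00 ± 0.06 and -0.02 ± 0.05). The Ctsl call held in all 14 such fits. In the 9 libraries of the block fit, 0 of these pathway genes passed in either comparison with untreated.

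**Figure D5:**
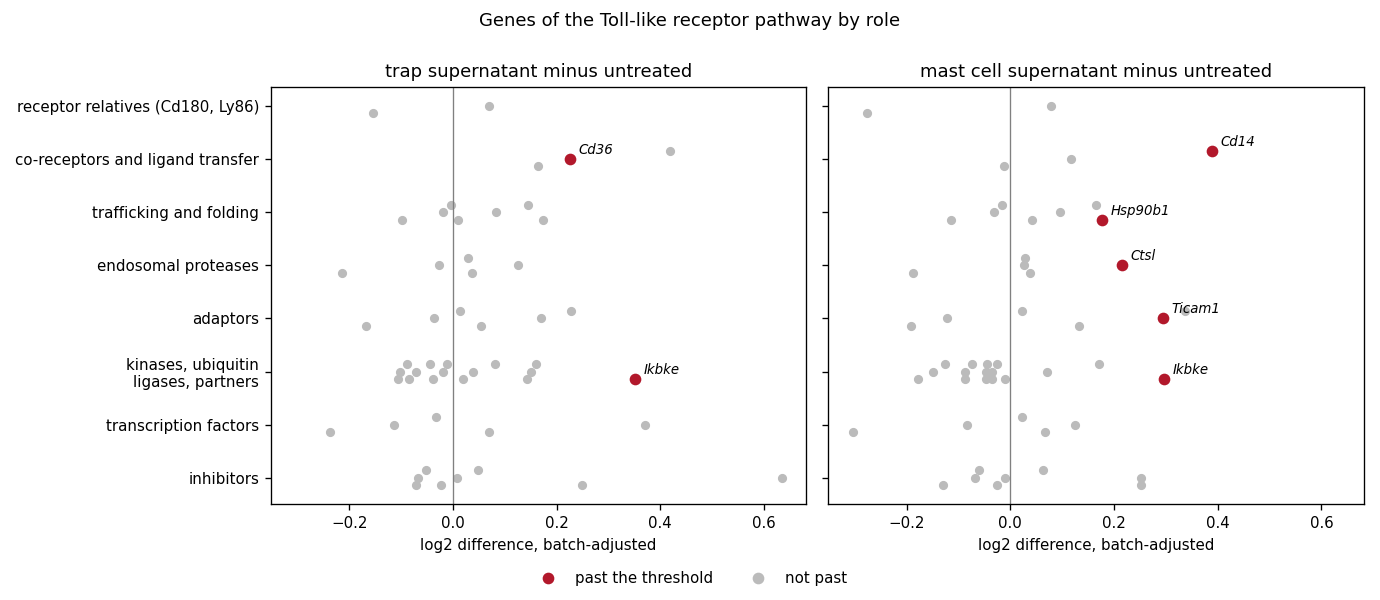
Batch-adjusted log2 differences of 52 tested genes of the receptor pathway by role, trap supernatant minus untreated on the left and mast cell supernatant minus untreated on the right, 1 point per gene, red where past the threshold. The named red points, 2 on the left and 5 on the right, all lie to the right of 0.

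For 13 of the 52 pathway genes the treatment differences varied between batches, beside 8.01% of all genes. For Tnfaip3, which encodes the NF-kB inhibitor A20, the log2 difference by batch was 1.30, -0.23 and -0.16 with trap supernatant and 1.44, 0.29 and -0.88 with mast cell supernatant. Nfkb1, the p105 and p50 precursor gene, had -0.01, -0.22 and -0.45 with trap supernatant and 0.13, -0.27 and -0.77 with mast cell supernatant. Irak2, a kinase bound by MYD88 complexes, had 0.45, -0.15 and -0.37 and, with mast cell supernatant, 0.50, 0.29 and -0.71. In these 3 genes, as in Tlr2, the value in batch 1 was the highest of the batches under both supernatants. Tab1, a partner of the kinase TAK1, ran the other way, at -0.46, -0.13 and 0.37 with trap supernatant and -0.55, -0.26 and 0.27 with mast cell supernatant (interaction, adjusted p = 0.0216).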

How the data were processed

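The authors deposited raw read counts per gene for 14 libraries, made with featureCounts 2.0.0 on GRCm38, per the submitters' processing notes; the sources used here name no aligner, annotation or strand setting. Columns were matched to the labels by group abbreviation, number of replicates in the group and replicate number; the labels do not spell out the abbreviations. Symbols were found for 47224 of 47937 identifiers (GENCODE M21 and RefSeq tables); exon lengths and coordinates are those of GENCODE M21.

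The counts went into edgeR 4.0.16 under R 4.3.3: filterByExpr (13061 genes kept; of the 10 receptor genes, Tlr5 was not), TMM scaling, group and batch in a robust quasi-likelihood fit, Benjamini-Hochberg adjustment over all genes and a threshold of 0.05. The treatment-by-batch test used the 4 interaction terms, and the test of untreated batches used 6 libraries (13045 genes). Within-batch differences are between group averages of log2 CPM (prior count 1). DESeq2 1.42.0 and limma 3.58.1 were alternatives, beside RLE scaling, no count filter, no batch term and leaving out batches or libraries. Reads carried no molecular identifiers.

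The members and gene lists were chosen with earlier results of these data known. Named genes are all members, 7 fixed pathway genes, up to 4 per role past the threshold in a comparison, the 3 genes most like each called member, and Tnf, Il1b and Irf7. Replicates 1 to 3 are in batches 1 to 3 in each group, per the labels, so these numbers pair libraries and the block repeats the batch term; deviations from group means correlated at 0.298 to 0.71 for the same number and -0.592 to 0.173 otherwise. No libraries within a group agreed within sampling noise (chi-square per degree of freedom at least 1.84). Of the pairs from the same group and batch, untreated replicates 3 and 6 of batch 3 were furthest apart, at 15.3. The other such pairs had 1.84 to 5.47, against 32.2 to 82.2 for pairs of the same group from different batches. The treatment-by-batch test and the test of untreated batches take their spread from pairs within a batch, which may be technical. 1 macrophage marker of the list is not reported here.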

Additional observations from a re-analysis of the deposited data

Results flagged for a closer look

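The treatment differences of 2 receptor genes varied between batches by the edgeR interaction test, Tlr2 (adjusted p = 8.98e-07) and Tlr13 (0.0446). The same test picked out the readout genes Tnf (6.66e-09) and Il1b (8.26e-07). Among co-receptors and relatives it picked out Cd14 (0.00241) and Cd180 (0.00799), and among transporters of the endosome Slc15a4 (0.0057) and Slc15a3 (0.0333). Among signalling genes it picked out Irak2 (3.28e-06), Traf6 (9.48e-05), Tab2 (0.00092), Peli1 (0.0012), Tab1 (0.0216) and Nfkb1 (0.00063), and among inhibitors Tnfaip3 (6.62e-09), Socs1 (0.000544) and Tollip (0.024).

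Within the untreated group, Tlr9 in replicate 6 (27.8 CPM) lay far from the other 5 libraries, of which the nearest had 19.6 CPM and the lowest 15.7 CPM. Replicate 6 was also the highest untreated library for Tlr1, Tlr2, Tlr4, Tlr6, Tlr7, Tlr8 and Tlr13, though these were not flagged. Chance flags about 1 in 20 groups, and 48 groups were examined with 1 flag.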

How the results depend on the processing

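The number of receptor genes past the threshold was 1 with trap supernatant, 1 with mast cell supernatant, 0 between the supernatants, 2 in the treatment-by-batch test and 8 between untreated batches. Leaving out each library gave 0 to 1, 1 to 2, 0 to 0, 1 to 4 and 5 to 9, while calls over all genes ran from 97 to 280, 449 to 751, 0 to 3, 643 to 2225 and 2278 to 7592. For pathway genes the counts of 2, 5 and 0 became 1 to 2, 2 to 6 and 0 to 0. Without the batch term, and in the replicate block fit, which differs from the batch-adjusted fit only in holding 9 of the 14 libraries, 0 receptor genes and 0 pathway genes passed against untreated with either supernatant. In the block fit all called genes numbered 36 with trap supernatant and 84 with mast cell supernatant, against 224 and 625.

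With DESeq2, 3 receptor genes (Tlr2, Tlr4, Tlr9) passed with mast cell supernatant, beside 6.77% of all genes. Without batch 1, 1 receptor gene passed the treatment-by-batch test, and 1 and 2 pathway genes passed with trap and with mast cell supernatant. Without batch 2 these pathway counts were again 1 and 2, and 1 receptor gene differed between untreated batches. Without batch 3, 0 receptor genes passed with trap supernatant and 2 with mast cell supernatant. All called genes then numbered 257 and 907, against 224 and 625 with all libraries. In the treatment-by-batch test 3 receptor genes then passed (Tlr2, Tlr4 and Tlr13), beside 1043 of all genes. Without the 3 libraries with most mast cell transcripts, chosen after seeing the data, 0 receptor and 0 pathway genes passed with trap supernatant, then a single library assumed to vary like the other groups, and 2 pathway genes with mast cell supernatant. The causes were not tested; the smaller fits have fewer libraries.

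Tlr4 with mast cell supernatant stayed past the threshold in 14 of 14 fits that left out a library, at log2 0.33 to 0.49. The order of levels in untreated libraries was the same by longest transcript. Depth limits Tlr5, Tlr11 and Tlr12.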
